A study of Mus musculus with 2 samples.

Results

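The IGKV3 and IGKV2 genes are 2 families of mouse kappa light chain V genes. They were followed here in single B cells of the mouse Peyer's patch, a lymphoid organ in the wall of the small intestine. A cell was a barcode with exactly 1 productive heavy chain, and its light chain was the productive light chain with the most unique molecular identifiers (UMIs, tags that count transcript molecules). All V genes whose names start with IGKV3- or IGKV2- were taken, which gave 12 of the 88 IGKV genes seen and 649 of 5879 kappa cells. There were 9 IGKV3 genes in 463 cells and 3 IGKV2 genes in 186 cells. The rule selects on gene names alone.

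The Cre+ library came from adult female H2-Ab1 fl/fl mice with Villin:Cre, which deletes the gene of the MHC class II beta chain in intestinal epithelium. The Cre- library came from adult female H2-Ab1 fl/fl mice without Cre, so the floxed allele was shared by both groups. Cells of 4 mice per genotype were enriched with magnetic beads for CD45, which marks white blood cells, then pooled into 1 library per genotype, whose receptor transcripts were amplified on the 10x Genomics 5' V(D)J platform. The question was whether the loss of epithelial MHC class II goes with another receptor repertoire. The sample labels give these genotypes, whereas the series' own design text gives both groups as Cre-. Only antigen receptor transcripts were measured, so neither the deletion nor the cell type could be checked.

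A kappa light chain is built when a V gene is joined to a J gene on the same chromosome, and the joint forms the third complementarity-determining region (CDR3), part of the antigen contact. A V gene supplies the start of the CDR3 and a J gene its end. A cell that keeps rearranging the locus can replace a first joint, made to an upstream J gene such as IGKJ1, by a later one to a downstream J gene such as IGKJ5. In Peyer's patches B cells also switch their heavy chain constant gene, mainly to IgA, and mutate their V regions.

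All 12 genes were found in a RefSeq gene table of the GRCm38.p6 build, on chromosome 6, each annotated as a V segment. The 9 IGKV3 genes lie close to the J genes. IGKV3-1, the nearest, was annotated at chr6:70703578-70704177, 18.4 kb from Igkj1, and IGKV3-12, the farthest of the family, at chr6:70518250-70518849, 204 kb away. The IGKV2 genes lie far from them. IGKV2-109 was annotated at chr6:68302439-68303158, 2419 kb from Igkj1. IGKV2-112 lay 2502 kb away and IGKV2-137, at chr6:67555636-67556216, lay 3166 kb away.

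The 8 genes with 20 or more cells differ in the V-encoded start of their CDR3, except that IGKV3-4 and IGKV3-5 share theirs. The most common CDR3 nucleotide sequence of each is shown as a guide to the J use, the mutation proxy and the overlap between genes below. Those were taken from the J call and the CDR3 of each cell. Capitals mark the first 15 nucleotides, which the V gene encodes.
IGKV3-4: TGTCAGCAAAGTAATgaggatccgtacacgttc
IGKV2-137: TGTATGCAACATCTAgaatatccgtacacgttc
IGKV3-2: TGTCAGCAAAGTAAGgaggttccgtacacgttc
IGKV2-109: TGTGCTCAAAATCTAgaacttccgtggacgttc
IGKV3-12: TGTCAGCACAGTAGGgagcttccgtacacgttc
IGKV3-10: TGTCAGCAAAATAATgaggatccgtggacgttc
IGKV3-5: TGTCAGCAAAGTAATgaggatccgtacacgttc
IGKV3-7: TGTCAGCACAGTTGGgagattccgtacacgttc
The sequence of IGKV2-109 and that of IGKV3-10 were joined to IGKJ1 and the other 6 to IGKJ2. IGKV3-4 and IGKV3-5 gave the same most common sequence, which encodes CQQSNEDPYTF, so the CDR3 alone does not tell these genes apart. Each such sequence was carried by cells of both libraries. IGKV2-137 had 17 cells with its sequence in the Cre+ library and 15 in the Cre- library.

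Both families took similar shares of the kappa cells in both libraries. IGKV3 genes were used by 249 of 3113 kappa cells in the Cre+ library, or 7.999% (95% interval 7.07 to 9.01), and by 214 of 2766 in the Cre- library, or 7.74% (6.77 to 8.80). IGKV2 genes were used by 103 Cre+ cells, or 3.31% (2.71 to 4.00), and by 83 Cre- cells, or 3.001% (2.40 to 3.71). Intervals are exact Clopper-Pearson ones and cover counting error only. Each genotype had a single pooled library, so no replicate check or test was possible. The Cre+ minus Cre- difference was 0.26 percentage points for IGKV3 (-1.15 to 1.66) and 0.31 for IGKV2 (-0.62 to 1.22). Both intervals, combined from the exact ones, include 0.

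No single gene stood apart between the libraries. IGKV3-4, the most used, had 68 Cre+ cells (2.18%) and 46 Cre- cells (1.66%), a difference of 0.52 points (-0.21 to 1.25). IGKV2-137 had 50 Cre+ and 44 Cre- cells. IGKV3-2 had 49 Cre+ and 44 Cre- cells. These 3 were followed by IGKV2-109 with 44 Cre+ and 37 Cre- cells and IGKV3-12 with 38 Cre+ and 38 Cre- cells. IGKV3-10 had 38 Cre+ and 31 Cre- cells, and IGKV3-5 had 27 Cre+ and 22 Cre- cells. IGKV3-7, with 18 Cre+ and 23 Cre- cells, was the last of the 8 genes. Within each library the intervals of neighbours in this order overlapped.

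The 4 rarer genes were counted as follows. IGKV3-1 had 5 Cre+ and 10 Cre- cells, and IGKV2-112 had 9 Cre+ and 2 Cre- cells. IGKV3-9 was seen in 5 Cre+ cells and in 0 Cre- cells, whose exact upper bound is 0.133%. A single Cre+ cell and no Cre- cell used IGKV3-3. A gene was called different when it had 20 or more cells, shares that differed by a ratio of at least 1.5, and non-overlapping intervals. Of the 62 IGKV genes with enough cells 2 were called, or 3.23%, against 0 of the 8 genes of these families.

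**Figure D1:**
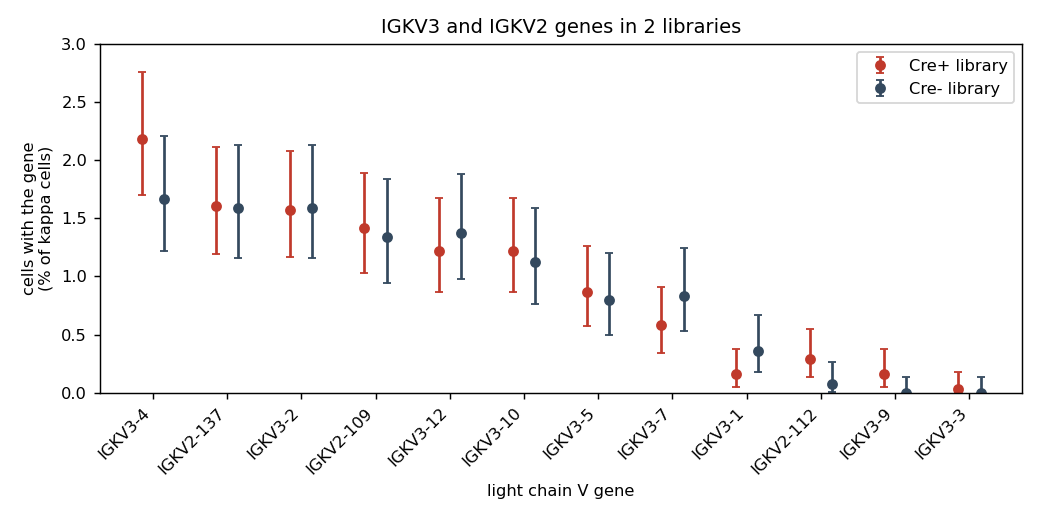
Share of kappa cells (%, vertical axis) that used each of the 12 genes (horizontal axis), in the Cre+ library (left point of each pair) and the Cre- library (right point). Bars are exact 95% intervals for counting error. The bars of the libraries overlap for each gene, and IGKV3-4 is the highest in both, at 2.18% in Cre+ and 1.66% in Cre- cells.

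The J partner separated the genes more than the genotype did. IGKV2-137 was nearly never joined to IGKJ1, the first J gene of the locus. It used IGKJ1 in 0 of 50 Cre+ cells (exact upper bound 7.11%) and in 1 of 44 Cre- cells, or 2.27% (0.0575 to 12.02). It used IGKJ2 in 25 Cre+ and 25 Cre- cells. It used IGKJ5, the last J gene, in 20 Cre+ and 12 Cre- cells, and IGKJ4 in 5 Cre+ and 6 Cre- cells. Productive chains of IGKV2-137 outside these cells, in barcodes without a heavy chain or with several and as second light chains, gave 0 of 24 with IGKJ1, and the contigs without the productive flag gave 0 of 11.

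Set against the other IGKV cells, the lack of IGKJ1 in IGKV2-137 exceeded counting error in both libraries. The difference from other IGKV genes was -29.9 points in Cre+ cells (-31.7 to -22.6) and -24.9 points in Cre- cells (-27.9 to -15.0). In both libraries the largest heavy chain lineage was left out of the other genes here, since in the Cre- library it held 394 kappa cells, and leaving it out took the IGKJ1 cells of the other genes there to 564, against 953 with it. Over both libraries IGKV2-137 was the 4th lowest of 62 genes in IGKJ1 use. It was not alone at the low end: 11 of the 62 genes, or 17.7%, used IGKJ1 in under 5% of their cells, and IGKV2-137 was the 1 of these 8 family genes among them. IGKV2-112 had IGKJ1 in 0 of its 11 cells.

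IGKV2-109, of the same family, differed. It used IGKJ1 in 21 of 44 Cre+ cells, or 47.7% (32.5 to 63.3), and in 17 of 37 Cre- cells, or 45.9% (29.5 to 63.1). Against the other IGKV genes without the largest lineage of each library, this was 17.8 points higher in Cre+ cells (2.46 to 33.5) and 18.8 points higher in Cre- cells (2.19 to 36). With that lineage kept, the difference was 18.4 points in Cre+ cells (3.06 to 34.1) but 7.35 points in Cre- cells, with an interval that includes 0 (-9.23 to 24.6). The IGKV2 family thus has no common J pattern: its IGKJ1 share of 20.4% in Cre+ and 21.7% in Cre- cells is the mean of these unlike genes.

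As a pooled family, though not each alone, IGKV3 genes used IGKJ1 more and IGKJ5 less than other IGKV genes outside the largest lineages. They used IGKJ1 in 102 of 249 Cre+ cells, or 41.0% (34.8 to 47.4), and in 78 of 214 Cre- cells, or 36.4% (30.0 to 43.3). Without the largest lineage of each library, other IGKV genes used IGKJ1 in 29.9% of Cre+ and 27.2% of Cre- cells, a difference of 11.1 points in Cre+ cells (4.64 to 17.7) and 9.27 points in Cre- cells (2.52 to 16.4). With that lineage kept, the difference was 11.7 points in Cre+ cells (5.25 to 18.3) but -2.15 points in Cre- cells (-8.89 to 4.95). IGKJ5 was used in 21 Cre+ cells, or 8.43% (5.30 to 12.6), and 37 Cre- cells, or 17.3% (12.5 to 23.04). Other IGKV genes without the largest lineage stood at 26.0% of Cre+ and 26.6% of Cre- cells, and these differences were -17.6 points (-21.2 to -13.1) in Cre+ and -9.26 points (-14.5 to -3.22) in Cre- cells. With that lineage kept, the IGKJ5 difference was -18.9 points in Cre+ cells (-22.5 to -14.5) and -5.03 points in Cre- cells, where the interval includes 0 (-10.1 to 0.945).

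The IGKJ5 share of IGKV3 cells also differed between the libraries, by -8.86 points for Cre+ minus Cre- (-15.4 to -2.49). The counts of the 6 IGKV3 genes with 20 or more cells follow. They divide the same cells and are not a separate check of that difference. IGKV3-12 had IGKJ5 in 7 of 38 Cre+ and 13 of 38 Cre- cells, IGKV3-2 in 1 of 49 Cre+ and 6 of 44 Cre- cells, and IGKV3-5 in 3 of 27 Cre+ and 6 of 22 Cre- cells. IGKV3-7 had it in 1 of 18 Cre+ and 5 of 23 Cre- cells, and IGKV3-4 in 4 of 68 Cre+ and 3 of 46 Cre- cells. In IGKV3-10 it was 5 of 38 Cre+ and 3 of 31 Cre- cells. Of 24 measures compared between the libraries for the IGKV3 family, this and the share of 11-residue CDR3s below were the 2 whose interval left out 0, and the intervals were not widened for that number.

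Over both libraries IGKV3-2 had the highest IGKJ1 share of the 6 larger IGKV3 genes. It carried IGKJ1 in 31 of 49 Cre+ cells, or 63.3% (48.3 to 76.6), and in 19 of 44 Cre- cells, or 43.2% (28.3 to 59.0). In the Cre- library IGKV3-10, with 14 of 31 cells or 45.2%, and IGKV3-4, with 20 of 46 or 43.5%, stood at the same level as IGKV3-2. IGKV3-12 had the least of the 6 larger IGKV3 genes over both libraries, with IGKJ1 in 7 of 38 Cre+ cells, or 18.4% (7.74 to 34.3), and 11 of 38 Cre- cells, or 28.9% (15.4 to 45.9). The gene nearest to the J genes among the 8, IGKV3-2, and the IGKV3 gene farthest from them, IGKV3-12, thus had the highest and lowest shares of the family over both libraries. The genes between did not follow their distance: IGKV3-10, 149 kb away, had 46.4%, and IGKV3-4, 50.2 kb away, had 36.8% over both libraries.

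**Figure D2:**
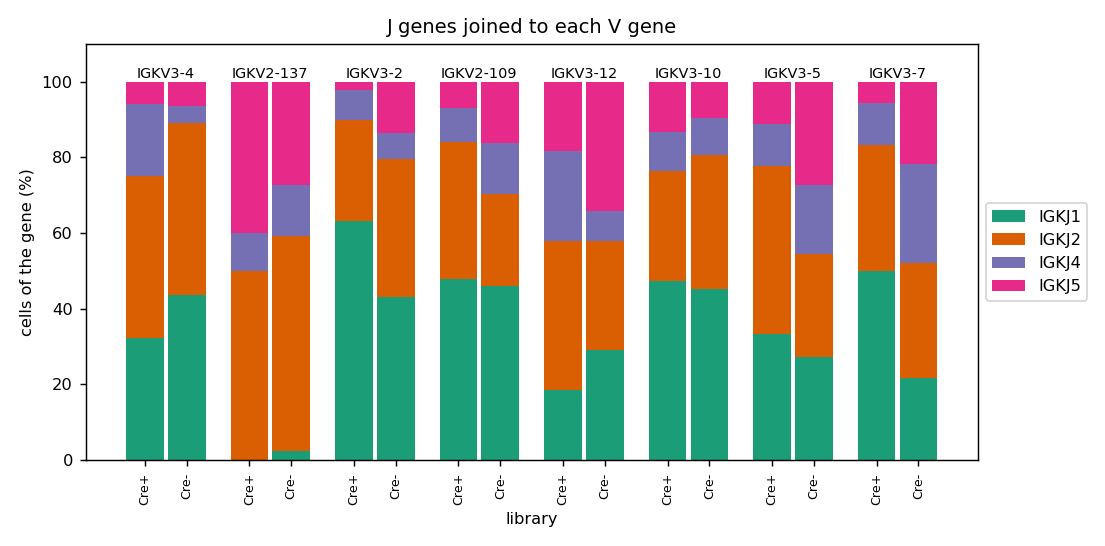
J genes joined to each of the 8 genes, as a percentage of that gene's cells (vertical axis), with the Cre+ library left of the Cre- library in each pair. IGKV2-137 lacks the IGKJ1 block, with 0 of 50 Cre+ and 1 of 44 Cre- cells, and the IGKJ1 block is the tallest in Cre+ cells of IGKV3-2, at 63.3%.

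**Figure D3:**
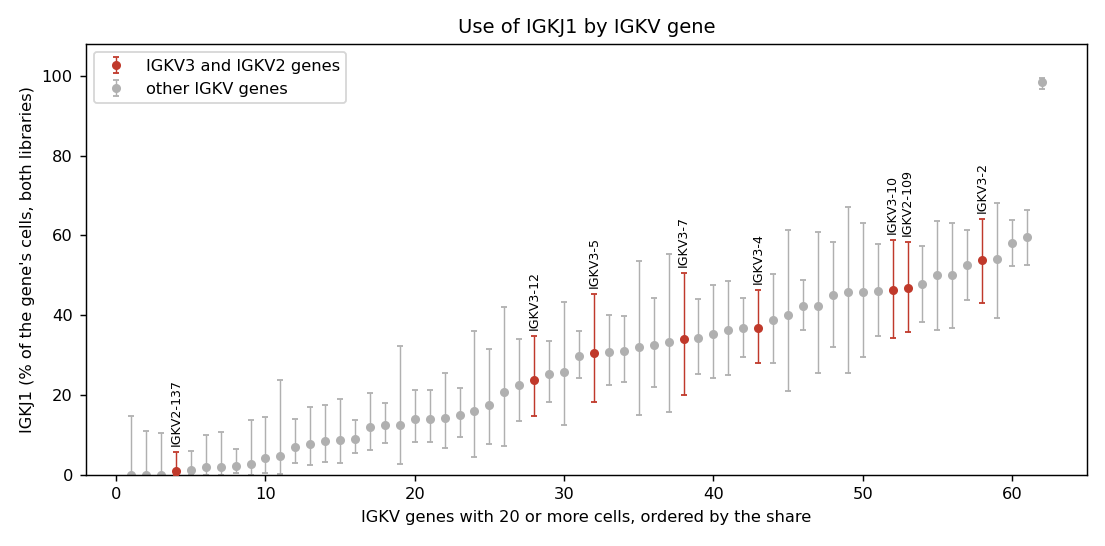
IGKJ1 share (vertical axis, % of a gene's cells over both libraries, with exact 95% intervals) of the 62 IGKV genes with 20 or more cells, ordered from low to high (horizontal axis). IGKV2-137 sits 4th from the low end at 1.06%, and the other 7 family genes lie between 23.7% for IGKV3-12 and 53.8% for IGKV3-2.

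Most CDR3s had 11 residues, as in other IGKV genes, and were nearly fixed by the V gene up to residue 6. An 11-residue CDR3 was found in 241 of 249 Cre+ IGKV3 cells, or 96.8% (93.8 to 98.6), and 197 of 214 Cre- cells, or 92.1% (87.6 to 95.3), a difference of 4.73 points (0.296 to 9.56). Other IGKV cells had 11 residues in 90.1% of Cre+ and 92.0% of Cre- cells. The IGKV3 difference from them was 6.64 points in Cre+ cells (3.43 to 8.80) and 0.0755 points in Cre- cells (-4.51 to 3.52). In the Cre- library 6 of 22 IGKV3-5 cells had another length, against 0 of 27 in the Cre+ library. All 94 IGKV2-137 cells had 11 residues, as had 42 of 44 Cre+ and 33 of 37 Cre- cells of IGKV2-109.

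The first 6 residues named the gene in most cells, except that IGKV3-4 and IGKV3-5 shared theirs. IGKV2-137 began CMQHLE in 93 of 94 cells, IGKV3-2 CQQSKE in 92 of 93, and IGKV3-12 CQHSRE in 73 of 76. IGKV3-7 began CQHSWE in 40 of 41 cells and IGKV3-10 CQQNNE in 66 of 69. IGKV2-109 was the most varied of the 8, with CAQNLE in 72 of 81 cells. IGKV3-4 began CQQSNE in 113 of 114 cells and IGKV3-5 in 49 of 49.

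The identity of IGKV3-4 and IGKV3-5 went beyond the start. IGKV3-4 had 12 different CDR3 nucleotide sequences and IGKV3-5 had 14, and 7 were in both. These 7 made up 109 of 114 IGKV3-4 cells and 40 of 49 IGKV3-5 cells. The calls of these genes rest on the rest of the V region, which the tables do not list.

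After the common start, the variety came from the joint and the J gene. The most common amino acid CDR3 of IGKV3-4 was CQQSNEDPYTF, in 29 Cre+ and 20 Cre- cells. IGKV2-137 had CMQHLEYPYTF in 19 Cre+ and 18 Cre- cells, and IGKV3-2 had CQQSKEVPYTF in 11 Cre+ and 16 Cre- cells. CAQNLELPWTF led in IGKV2-109 with 16 Cre+ and 11 Cre- cells, and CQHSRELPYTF in IGKV3-12 with 14 Cre+ and 11 Cre- cells. IGKV3-10 was led by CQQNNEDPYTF with 9 Cre+ and 9 Cre- cells, IGKV3-5 by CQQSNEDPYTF with 12 Cre+ and 5 Cre- cells, and IGKV3-7 by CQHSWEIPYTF with 6 Cre+ and 6 Cre- cells.

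Many of these light chains recurred between the libraries, and so between mice of different genotype. IGKV3 cells of the Cre+ library held 63 different combinations of V gene and CDR3 nucleotides, those of the Cre- library 69, and 32 were in both, which is 50.8% of the Cre+ and 46.4% of the Cre- combinations. For IGKV2 it was 14 of 31 Cre+ and 14 of 22 Cre- combinations. Among other IGKV genes it was 45.8% of Cre+ and 53.7% of Cre- combinations. Counted by cells, 81.5% of Cre+ and 77.1% of Cre- IGKV3 cells carried a combination also found in the other library. This differed from other IGKV cells by 0.903 points in the Cre+ library (-4.68 to 5.77) and by -9.21 points in the Cre- library (-15.6 to -3.57). With the largest Cre- lineage left out, the Cre- difference was -6.61 points (-13.02 to -0.909).

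Most cells of both families were unswitched, as IgM or IgD. IGKV3 cells were switched to IgA or IgG in 18 of 248 Cre+ cells with a constant gene, or 7.26% (4.36 to 11.2), and in 15 of 213 Cre- cells, or 7.04% (3.99 to 11.3). IGKV2 cells were switched in 15 of 103 Cre+ cells, or 14.6% (8.39 to 22.9), and 11 of 83 Cre- cells, or 13.3% (6.81 to 22.5). The switched share differed between the libraries by 0.22 points for IGKV3 (-4.98 to 5.22) and 1.31 points for IGKV2 (-9.79 to 11.8). Other IGKV genes were switched in 11.5% of Cre+ and 24.6% of Cre- cells, but in 9.90% of Cre+ and 10.3% of Cre- cells without the largest lineage of each library. Against these last shares the IGKV3 differences, -2.64 points in Cre+ (-5.77 to 1.48) and -3.21 points in Cre- cells (-6.56 to 1.28), were within counting error.

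The switched share varied among the 8 larger genes, but their intervals overlapped within each library. IGKV3-5 had no switched cell, 0 of 27 in the Cre+ library (exact upper bound 12.8%) and 0 of 22 in the Cre- library (15.4%). IGKV3-4 had 2 of 68 Cre+ and 1 of 46 Cre- cells switched, and IGKV3-2 had 4 of 49 Cre+ and 0 of 44 Cre- cells. IGKV3-12 had 5 of 38 switched in the Cre+ and 5 of 38 in the Cre- library. IGKV2-137 had 10 of 50 Cre+ cells switched, or 20% (10.03 to 33.7), the highest Cre+ share of the 8 larger genes, and 6 of 44 Cre- cells, or 13.6% (5.17 to 27.4). In the Cre- library IGKV2-109 at 13.5%, IGKV3-10 at 13.3% and IGKV3-12 at 13.2% were level with it. Of the 10 switched Cre+ cells of IGKV2-137, 3 were IgA cells of a single lineage.

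IgA and IgG, the mucosal and the systemic switched isotypes, shared the switched cells unevenly. In IGKV3 cells 14 Cre+ cells were IgA and 4 were IgG, against 5 IgA and 10 IgG among Cre- cells. The IgG difference of -3.08 points (-7.03 to 0.373) and the IgA difference of 3.30 points (-0.658 to 7.27) both include 0. Of the 10 IgG cells in the Cre- library 3 belonged to 1 IGKV3-12 lineage. Against other IGKV genes without the largest lineage of each library, IGKV3 had less IgG in Cre+ cells, by -3.52 points (-5.00 to -0.928). The IgG difference in Cre- cells was 0.147 points (-2.47 to 4.01). For IgA it was -3.36 points in Cre- cells (-5.28 to -0.168) and 0.883 points in Cre+ cells (-1.79 to 4.61). Each of these lower shares was thus seen in a single library. IGKV2 cells had 9 IgA and 6 IgG in the Cre+ library and 6 IgA and 5 IgG in the Cre- library.

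Departures from a gene's common first 15 nucleotides, a proxy of mutation within the CDR3, were confined to switched cells in the IGKV3 family. Of 230 unswitched Cre+ cells 0 departed (exact upper bound 1.59%), as did 0 of 198 unswitched Cre- cells (1.85%). Of switched IGKV3 cells 9 of 18 departed in the Cre+ library, or 50% (26.02 to 74.0), and 4 of 15 in the Cre- library, or 26.7% (7.79 to 55.1). Switched IGKV2 cells departed in 6 of 15 Cre+ and 2 of 11 Cre- cells.

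IGKV2-109 did not keep to that rule. Among its unswitched cells 5 of 39 in the Cre+ library departed, or 12.8% (4.30 to 27.4), and 1 of 32 in the Cre- library, or 3.13% (0.0791 to 16.2). Other IGKV genes departed in 24 of 2428 unswitched Cre+ cells, or 0.988% (0.634 to 1.47), and 16 of 1855 unswitched Cre- cells, or 0.863% (0.494 to 1.40). Of these 6 unswitched IGKV2-109 cells 4 carried the heavy chain gene IGHV6-3, described next, and 2 of those 4 are the Cre+ pair with near-identical barcodes named there. All 6 were joined to IGKJ2. Among the Cre+ ones the start CAQLLE recurred with the heavy chain genes IGHV6-3, IGHV1-9 and IGHV10-1. Whether these departures are mutations was not tested.

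In these cells IGKV2 light chains were paired with the heavy chain V gene IGHV6-3 more often than other kappa chains. IGHV6-3 was the most common partner of both larger IGKV2 genes and was singled out from these same data. The intervals below were not widened for that choice. IGHV6-3 was the partner in 14 of 103 Cre+ IGKV2 cells, or 13.6% (7.63 to 21.8), and in 6 of 83 Cre- cells, or 7.23% (2.70 to 15.1). Other IGKV genes carried it in 55 of 2761 Cre+ cells, or 1.99% (1.504 to 2.59), and in 49 of 2469 Cre- cells, or 1.98% (1.47 to 2.62). The difference was 11.6 points in Cre+ (5.61 to 19.8) and 5.24 points in Cre- cells (0.671 to 13.1). IGKV3 cells stood near the other genes, with IGHV6-3 in 5 of 249 Cre+ and 8 of 214 Cre- cells.

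Counted by cells, each of the 2 larger IGKV2 genes exceeded the other IGKV genes beyond counting error in the Cre+ library alone. IGKV2-137 had IGHV6-3 in 8 of 50 Cre+ cells, or 16.0% (7.17 to 29.1), and 3 of 44 Cre- cells, or 6.82% (1.43 to 18.7). IGKV2-109 had it in 6 of 44 Cre+ cells, or 13.6% (5.17 to 27.4), and 3 of 37 Cre- cells, or 8.11% (1.70 to 21.9). The difference from other IGKV genes was 14.01 points for IGKV2-137 (5.16 to 27.1) and 11.6 points for IGKV2-109 (3.16 to 25.4) in Cre+ cells. In Cre- cells it was 4.83 points for IGKV2-137 (-0.593 to 16.7) and 6.12 points for IGKV2-109 (-0.311 to 19.9), both with 0 inside. Some of these cells belonged to a common lineage, a grouping by sequence similarity that does not by itself show common descent. Counted once per lineage, a lineage being cells of a library with the same heavy V and J and light V genes and similar heavy CDR3s, IGKV2-137 had 6 of 48 Cre+ and 2 of 43 Cre- lineages with IGHV6-3 and IGKV2-109 had 3 of 40 Cre+ and 3 of 36 Cre- lineages. The share of Cre+ lineages was 12.5% for IGKV2-137 (4.73 to 25.2) and 7.5% for IGKV2-109 (1.57 to 20.4). For other IGKV genes it was 1.97% (1.48 to 2.58). The IGKV2-109 interval overlaps that of other genes and the IGKV2-137 interval does not. With each lineage counted once per isotype class, the Cre- difference of the IGKV2 family from other genes, 3.76 points, has an interval that includes 0 (-0.40 to 11.3).

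Counted by cells, some of them in a common lineage, the J gene and isotype split by light V gene. Of the 8 Cre+ IGKV2-137 cells with IGHV6-3, 7 used IGKJ5 and 7 were switched, 5 of them to IgA, against 2 of 3 with IGKJ5 and 2 of 3 switched to IgA among the Cre- cells. Of the 6 Cre+ IGKV2-109 cells with IGHV6-3, 5 used IGKJ2 and 1 was switched, against 2 of 3 with IGKJ2 and 1 of 3 switched in Cre- cells. Cells of a common lineage were counted singly here. In the Cre+ library 3 IgA cells of IGKV2-137 with IGKJ5 formed a single lineage. The 2 Cre- IGKV2-137 cells with IGKJ5 formed another. The 5 Cre+ IGKV2-109 cells with IGKJ2 made up a lineage of 3 cells and a lineage of 2 cells. By this count of cells, IGHV6-3 was the partner in 7 of the 10 switched IGKV2-137 cells in the Cre+ library. Among unswitched cells alone, IGKV2 and other IGKV genes differed in IGHV6-3 use by 1.85 points in the Cre- library (-1.54 to 9.41), and the IGKV2 share in the Cre+ library was 6.82% (2.54 to 14.3).

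The heavy CDR3 of IGHV6-3 cells differed with the light chain. It began with CTD in 12 of 14 Cre+ cells with an IGKV2 chain, or 85.7% (57.2 to 98.2), and in 9 of 60 with other kappa chains, or 15% (7.10 to 26.6). In the Cre- library it was 4 of 6 with an IGKV2 chain (22.3 to 95.7%) and 4 of 57 with other kappa chains, or 7.02% (1.95 to 17.0). Among unswitched cells it was 4 of 6 with IGKV2 and 4 of 51 with others in the Cre+ library, and 2 of 3 with IGKV2 and 4 of 51 with others in the Cre- library. This start was picked out after the sequences had been seen, and cells of 1 lineage are counted singly.

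A heavy CDR3 beginning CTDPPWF recurred in both libraries and was seen among these cells with IGKV2-109 alone. It was carried by 3 Cre+ cells and 1 Cre- cell, all IGHV6-3 joined to IGHJ3 and all with IGKV2-109 joined to IGKJ2. It too was picked out after the sequences had been seen. Their heavy CDR3s, from the IGH locus on chromosome 12, are shown with the 21 nucleotides of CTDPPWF in capitals.
Cre+ heavy chain of the IgA cell: TGCACAGACCCCCCCTGGTTTccttactgg
Cre+ heavy chain of the IgM cells: TGCACAGACCCTCCCTGGTTTggtttctgg
Cre- heavy chain of the IgM cell: TGCACTGACCCCCCCTGGTTTcctttctgg
Their light CDR3s follow, with the first 15 nucleotides in capitals, to set beside the common IGKV2-109 start shown above.
Cre+ light chain of the IgA cell: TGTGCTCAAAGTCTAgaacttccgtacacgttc
Cre+ light chain of the IgM cells: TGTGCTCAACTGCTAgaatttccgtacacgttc
Cre- light chain of the IgM cell: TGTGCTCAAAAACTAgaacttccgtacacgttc
By the lineage rule the Cre+ IgA and IgM cells form 1 lineage of 3 cells, so the start was seen in 1 lineage of each library. The 3 different receptors share the 7 residues of the heavy CDR3 but not their nucleotides. Their light chains each replaced the asparagine of CAQNLE by another residue, giving CAQSLE, CAQLLE and CAQKLE. The 2 Cre+ IgM cells had identical CDR3s and barcodes that differ at 2 positions, with 8992 light chain UMIs in the first and 6 in the second, so they may not be counted safely as 2 cells.

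Other preferred partners were few. Pairs of light and heavy V genes were compared with the number expected from the frequency of each gene, with each lineage counted once. Among all 1582 pairs with 1 or more expected, 31, or 1.96%, reached 3 or more times the expected number, and 9 of 213 pairs with these light chains did. IGKV3-5 with IGHV1-72 had 4 Cre+ and 3 Cre- lineages, 4.47 times the 1.57 expected, and IGKV3-2 with IGHV1-53 had 6 Cre+ and 3 Cre- lineages, 3.56 times the 2.53 expected. IGKV2-137 with IGHV6-3 was at 3.69 times and IGKV2-109 with IGHV6-3 at 3.31 times. IGHV6-3 was not in excess with IGKV2 genes alone: IGKV9-124, of another family, had 2 Cre+ and 2 Cre- lineages with it, 3.59 times the 1.12 expected. The other 5 pairs rested on 4 or 5 lineages each.

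Otherwise the partners were broad. IGHV1, the largest mouse heavy chain family, was the partner of 175 of 249 Cre+ IGKV3 cells, or 70.3% (64.2 to 75.9), and of 134 of 214 Cre- cells, or 62.6% (55.8 to 69.1). Among IGKV2 cells it was 58.3% in Cre+ and 65.1% in Cre- cells. Other IGKV genes without the largest lineage of each library stood at 63.8% in Cre+ and 63.4% in Cre- cells. The IGKV3 difference from them was 6.51 points in Cre+ (0.153 to 12.4) and -0.757 points in Cre- cells (-7.92 to 6.08). With that lineage kept, it was 7.88 points in Cre+ (1.52 to 13.8) and 9.36 points in Cre- cells (2.22 to 16.2). IGKV3-4 was found with 46 different IGHV genes, led by IGHV1-72 with 5 Cre+ and 4 Cre- cells. IGKV3-2 and IGKV2-137 were each found with 43, IGKV3-12 with 42 and IGKV2-109 with 38. IGKV3-12 was led by IGHV3-6, with 2 Cre+ and 5 Cre- cells, of which 3 Cre- cells shared a lineage. IGKV3-10 and IGKV3-7 were led by IGHV1-64, with 3 Cre+ and 3 Cre- cells, and IGHV1-55, with 2 Cre+ and 2 Cre- cells.

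**Figure D4:**
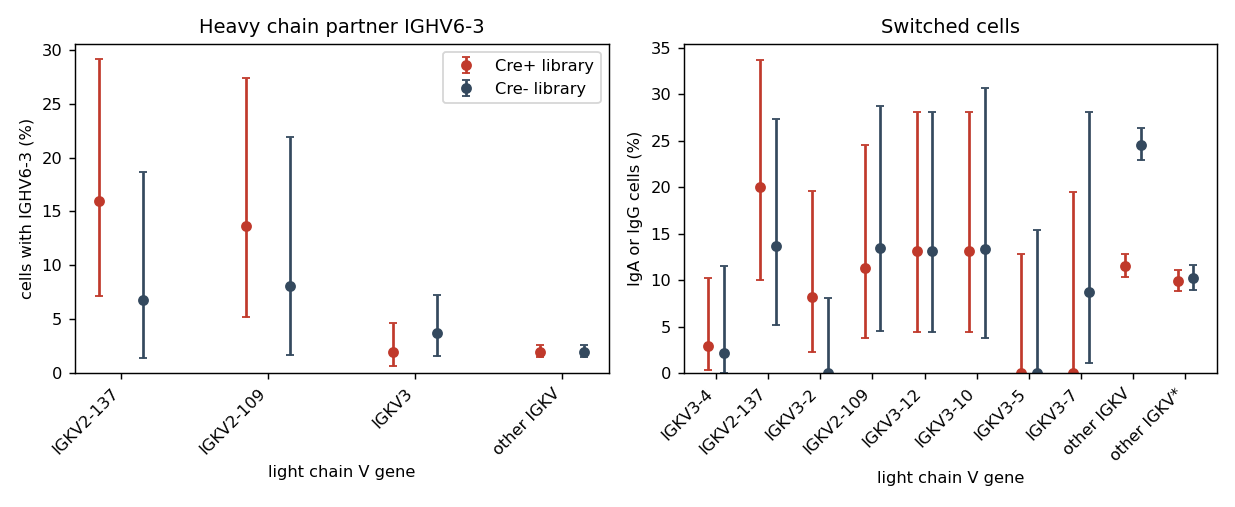
Left, share of cells whose heavy chain is IGHV6-3 (%, vertical axis) by light chain V gene or family. Right, share of cells switched to IgA or IgG (%) by light chain V gene, where the asterisk marks other IGKV genes without the largest lineage of each library. Cre+ points stand left of Cre- points and bars are exact 95% intervals. In Cre+ cells IGHV6-3 is highest with IGKV2-137, at 16.0%, and in Cre- cells it is 6.82% with IGKV2-137 and 8.11% with IGKV2-109. In the right panel the switched share of other IGKV genes in Cre- cells drops to 10.3% when that lineage is left out, against 24.6% with it.

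The expanded lineages of both families were small. Lineages of 2 or more cells numbered 5 among IGKV3 and 4 among IGKV2 cells in the Cre+ library. In the Cre- library there were 1 among IGKV3 and 2 among IGKV2 cells. They held 11 of 249 Cre+ IGKV3 cells, or 4.42% (2.23 to 7.77), and 3 of 214 Cre- IGKV3 cells, or 1.40% (0.290 to 4.04). They held 10 of 103 Cre+ IGKV2 cells, or 9.71% (4.75 to 17.1), and 4 of 83 Cre- cells, or 4.82% (1.33 to 11.9). Among other IGKV genes such lineages held 159 of 2761 Cre+ cells, or 5.76% (4.92 to 6.69). In the Cre- library it was 448 of 2469 cells, or 18.1% (16.6 to 19.7). The intervals of both families overlapped that of other IGKV genes in Cre+ cells and lay below it in Cre- cells. Of the 448 Cre- cells of other genes, 385 belonged to a single lineage. The Cre- comparison thus rests mostly on that lineage and does not show that these families were less expanded than the rest. No lineage of these families had more than 3 cells, whereas the largest among other IGKV genes held 48 Cre+ cells and 385 Cre- cells. In the Cre+ library an IGKV2-137 and IGHV6-3 lineage of 3 IgA cells shared the heavy CDR3 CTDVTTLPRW. An IGKV3-10 and IGHV1-72 lineage held 3 Cre+ IgA cells with 3 different heavy CDR3s and 3 different light CDR3s, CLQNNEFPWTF, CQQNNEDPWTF and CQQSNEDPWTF. In the Cre- library 3 IgG2b cells of IGKV3-12 with IGHV3-6 shared the light CDR3 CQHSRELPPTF.

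Transcript counts differed between the families. Among unswitched cells, the median light chain UMI count of IGKV3 cells was 35.5 in the Cre+ library (quartiles 23 and 46) and 39 in the Cre- library (28 and 52.8). For IGKV2 it was 24 in Cre+ (14 and 30) and 28 in Cre- cells (18.8 and 39.3), and for other IGKV genes 29 in Cre+ (18 and 44) and 32 in Cre- cells (20 and 47). The heavy chain of the same cells had a median of 8 UMIs in both families and both libraries. The light to heavy ratio had a median of 4.50 in Cre+ and 5.29 in Cre- IGKV3 cells, 2.30 in Cre+ and 3.11 in Cre- IGKV2 cells, and 3.50 in Cre+ and 3.50 in Cre- cells of other genes. The quartiles overlap, and cells of a library are not replicates.

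Ordered by that median over both libraries among 59 genes with 20 or more unswitched cells, the 2 IGKV2 genes were 21st and 24th from the low end. The 6 IGKV3 genes ran from IGKV3-5, 29th with 30 UMIs, to IGKV3-7, 52nd with 42.5 UMIs. IGKV3-4 had 42 UMIs, IGKV3-2 had 39 and IGKV3-10 had 38.

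**Figure D5:**
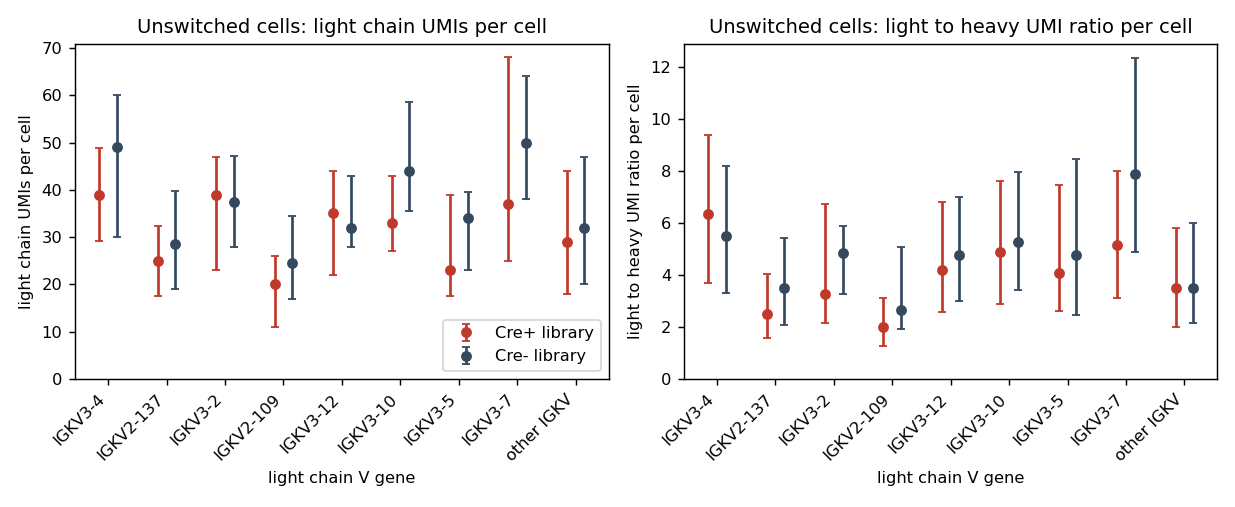
Median and quartiles (bars) of light chain UMIs per cell (left) and of the light to heavy UMI ratio per cell (right) in unswitched cells, by light chain V gene, with Cre+ points left of Cre- points. IGKV2-109 is the lowest of the 8 genes in both panels, with a median of 20 UMIs in Cre+ and 24.5 in Cre- cells, below IGKV2-137 with 25 in Cre+ and 28.5 in Cre- cells.

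A second productive light chain was found in 32 of 352 Cre+ and 27 of 297 Cre- cells of both families. Of these extra chains, 31 in the Cre+ library and 26 in the Cre- library were kappa. The share was 8.43% in Cre+ and 9.35% in Cre- IGKV3 cells, and 10.7% in Cre+ and 8.43% in Cre- IGKV2 cells, near the 8.48% in Cre+ and 6.84% in Cre- cells of other IGKV genes. The second chain had a median of 16 UMIs in Cre+ and 17 in Cre- cells, below the 30.5 in Cre+ and 37 in Cre- cells of the main chain. A second chain can be a second rearrangement of the cell, stray RNA or a second cell, which was not tested.

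The Cre+ library held 3748 barcodes with 355258 UMIs and the Cre- library 3245 barcodes with 355985 UMIs, so the UMI totals were close. The cells were not equally covered: the Cre+ library had 12300 contigs and a median of 8 heavy chain UMIs per kappa cell, against 10108 contigs and a median of 10 in the Cre- library. The 2 libraries shared 10 barcodes, which 0 Cre+ and 2 Cre- cells of these families carried.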

How the data were processed

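The tables were deposited by the authors, 1 contig table per library. Per the file headers they list each assembled receptor transcript with its barcode, V, J and constant gene, CDR3, contig length in bases, and its count of reads and of UMIs, which were not normalised. Per the submitters' processing notes, the tool was Cell Ranger and the build GRCm38; no tool version is given in the sources used here. All contigs were flagged as coming from called cells at high confidence. Gene expression was not used here, no doublet caller was run, and barcodes with 2 or more heavy chains were left out.

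Isotype shares leave out cells without a called constant gene. A lineage shared library, IGHV, IGHJ and IGKV genes and heavy CDR3 length, with cells linked at a nucleotide identity of 85% or above (single linkage). The largest lineage left out of some comparisons was defined by the heavy chain alone. Exact 95% Clopper-Pearson intervals were computed with scipy 1.17.1. Intervals of a difference combine the 2 exact intervals by Newcombe's square-and-add rule. They cover counting error only and treat cells as independent, which cells of a lineage are not. The Cre+ library had 355258 UMIs over 3748 barcodes and the Cre- library 355985 over 3245. The steps were tested on simulated data.

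All IGKV3 and IGKV2 genes are named, and those with 20 or more cells are described in full. The members and lists were chosen with earlier results of these data known. The comparison of heavy-light pairs, the limit of 5% IGKJ1 and the heavy CDR3 starts were added after the values had been seen. The heavy chain gene IGHV6-3 was singled out from these same data. Alternatives were other rules for barcodes and chains, a minimum of 3 UMIs, lineages counted once, the largest lineage left out, unswitched cells alone and 12 or 18 nucleotides of V start.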

Additional observations from a re-analysis of the deposited data

Results flagged for a closer look

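The following values lie outside the cells described. Productive IGKV3 and IGKV2 chains stood in barcodes without a heavy chain 39 times in the Cre+ and 16 times in the Cre- library, in barcodes with 2 or more heavy chains 25 times in the Cre+ and 15 times in the Cre- library, and as second light chain of a cell 19 times in the Cre+ and 14 times in the Cre- library. Contigs without the productive flag numbered 25 in Cre+ and 24 in Cre- for IGKV3 and 14 in Cre+ and 6 in Cre- for IGKV2. These counts exceed the 3 that a count of 0 allows, and no control for them exists.

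The IGKJ1 share of IGKV3 cells minus that of other IGKV cells had opposite signs in the libraries, 11.7 points in Cre+ and -2.15 points in Cre- cells. The difference between the libraries was not tested. Without the largest lineage of each library both values were positive, 11.1 points in Cre+ and 9.27 points in Cre- cells.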

How the results depend on the processing

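No paired analysis was possible because each genotype has 1 pooled library. Of 467 recomputed values of 67 results, 445 were counted as unchanged. A share had to stay within its reported interval, and a count within a ratio of 1.5. The interval of a difference had to keep including 0 or keep leaving it out, in the latter case with the same sign. The family shares ran from 7.63 to 8.38% (IGKV3, Cre+), 7.41 to 9.32% (IGKV3, Cre-), 3.16 to 3.38% (IGKV2, Cre+) and 2.87 to 3.50% (IGKV2, Cre-). In Cre- cells the values moved with the largest lineage, which 3 alternatives shrink: lineages counted once per isotype class, that lineage left out, and unswitched cells alone. In that order, the IGKV3 share was 9.04, 9.02 and 9.32%. IGKV3 minus other IGKV in Cre- cells reversed to 8.63, 9.27 and 8.76 points for IGKJ1 and passed counting error for IGKJ5, at -9.13, -9.26 and -9.46 points. Under each of the 3, 0 IGKV genes met the rule for a difference between libraries. The lower switched share of IGKV3 cells no longer left out 0 with lineages counted once (-2.66 points in Cre+, -3.15 in Cre-), with the largest lineage taken out of both sides (-3.37 in Cre+, where it held 3 cells of these families, and -3.21 in Cre-), or, in Cre+, with 3 or more light UMIs (-3.99). The IGHV6-3 share of IGKV2 cells was 6.82% in unswitched Cre+ cells, and its Cre- difference was 3.76 points with lineages counted once and 1.85 points in unswitched cells, both including 0. With 12 nucleotides of V start, 6.67% of switched Cre- IGKV3 cells departed. The cause of these last shifts was not tested. With 41 to 114 cells per described gene over both libraries, cell number limits the precision of every share within a gene.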
